A study of Homo sapiens with 12 samples.

Results

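Talazoparib and decitabine were set against each other directly in EGI-1, an established cholangiocarcinoma (bile duct cancer) cell line, to list the genes that tell the agents apart. The comparison rested on 4 of the 12 RNA-seq libraries of the series, 2 from EGI-1 cells given 200 nM talazoparib and 2 from EGI-1 cells given 500 nM decitabine, each harvested after 72 h. It was fitted together with 2 EGI-1 libraries that received vehicle (DMSO) and 2 that received both agents at those doses. The labels call every line wild type, and no arm differed in anything but the agents. The dose of talazoparib is that of the labels and methods; the library names hold the number 50 instead. For reading the result in a different line, 4 libraries of HUCCT1, another cholangiocarcinoma line, were used, 2 with vehicle and 2 with 1000 nM decitabine for 72 h. Among these libraries talazoparib was given to EGI-1 alone, each agent at a single dose and time, so a difference between the agents is a difference between these doses at 72 h.

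Decitabine is a cytidine analogue that is built into DNA during replication, where it binds DNA methyltransferases covalently and leads to loss of DNA methylation over following divisions. Talazoparib inhibits PARP1 and PARP2, enzymes that mark DNA breaks with ADP-ribose chains, and holds them on the DNA. Both agents therefore act on replicating DNA, through different proteins.

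Total counts per EGI-1 library lay between 23139065 and 33181930, and 22406 genes passed the filter on low counts. The libraries were close to each other: TMM scaling factors ran from 0.990 to 1.01, and the talazoparib and decitabine libraries lay side by side between vehicle and combination on the first principal component, which held 36.6% of the variance. Replicates of decitabine differed more from each other than those of talazoparib, with a chi-square per gene of 10.5 against 5.17, and mitochondrially encoded genes took 2.09% of the counts in decitabine replicate 1 but 1.47% in decitabine replicate 2, 1.35% in talazoparib replicate 1 and 1.68% in talazoparib replicate 2. The bile duct markers KRT7, KRT19, EPCAM and SOX9 were detected in EGI-1, and the summed level of the 8 markers listed ranged from 2487 to 2828 CPM over its 8 libraries. Of these 8 markers, 6 passed the filter. So did 3 of 8 hepatocyte, 1 of 7 fibroblast, 4 of 6 endothelial and 2 of 9 immune markers. ALB, the hepatocyte albumin, and PTPRC, the pan-leukocyte CD45, were among those that did not pass. Each of these other lists summed to at most 52.4 CPM in any EGI-1 library. None of the 5 marker lists had a member called between the agents. CPM (counts scaled to the library's size with TMM factors) give levels, and differences are log2 fold changes, talazoparib minus decitabine, with their standard error.

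The agents differed in 212 of 22406 genes at an adjusted p under 0.05 in edgeR's quasi-likelihood test, which is 0.946% of the genes tested. Of these, 79 (0.353%) were higher with talazoparib and 133 (0.594%) were higher with decitabine. At an unadjusted p under 0.05 the count was 2210 (9.86%). The libraries of the agents did not overlap in any of the 212 genes, against 37.3% of all genes tested. These genes thus had the same sign within either series of library names (B with a number, and a single letter). The 212 genes were chosen with the same libraries, which favours such separation, so this is a description and not separate support. Leaving out a library moved the count by over 1.5 times for 6 of the 8 libraries: it was 128 and 117 without vehicle replicate 1 or 2, 468 and 494 without decitabine replicate 1 or 2, and 76 and 110 without talazoparib replicate 1 or 2. It was also 119 with the replicate number as a block and 79 with the 4 talazoparib and decitabine libraries alone. Most differences were small: 64 of the 79 genes and 89 of the 133 genes differed by no more than 1.5-fold, and only 4 and 13 exceeded 2-fold. The limit cut through a continuum, since ENO2, a glycolytic enolase, was the last gene inside it (-0.47, adjusted p = 0.0499) and EHF, an epithelial ETS factor, the first outside (-0.26, adjusted p = 0.0505). With 2 libraries against 2, an exact permutation test of a single gene cannot go below p = 0.333, so the calls rest on the spread estimated across all genes, and nothing states that the libraries came from separate experiments.

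Of the gene lists examined, the histone genes held the most calls. Replication-dependent histone genes package newly made DNA, are transcribed in S phase, and yield mRNAs that end in a stem-loop instead of a poly(A) tail. Of 56 such genes tested, 36 (64.3%) were called higher with decitabine than with talazoparib, against 0.594% of all genes. None was called higher with talazoparib, and the median difference was -0.48 against -0.00 over all genes. The 63 listed genes summed to 8601 and 8730 CPM with decitabine and to 6066 and 6180 CPM with talazoparib, a summed level 29.3% lower with talazoparib. Vehicle libraries held 9298 and 8363 CPM, and combination libraries 3405 and 3694 CPM. The decitabine libraries thus lay inside the vehicle range, the talazoparib libraries below both, and the combination libraries lowest.

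All histone classes shared the direction. The class counts that follow stand against 0.594% of all genes called higher with decitabine. The linker histones H1 had 4 of 5 tested genes called, with a median of -0.54. Of the core histones, H2B had 15 of 15 called (median -0.57), H2A 8 of 12 (median -0.47), H3 4 of 11 (median -0.46) and H4 5 of 13 (median -0.43). Of the 56 genes, 3 had a fold change above 0, and none of these was called: H3C14 (0.40), H2AC17 (0.13) and H2AC7 (0.00). Copies of a histone class can be near-identical, and it is not stated where a read that fits more than 1 of them was counted, so values of single histone genes are less certain than those of the class.

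H3C2, which encodes histone H3, had the highest mean count of the list. It stood at 545 and 590 CPM with decitabine and at 382 and 385 CPM with talazoparib, beside 606 and 540 CPM with vehicle (-0.56 ± 0.07, adjusted p = 0.000229). H1-5, a linker histone, stood at 456 and 493 CPM with decitabine, 325 and 326 CPM with talazoparib, and 487 and 480 CPM with vehicle (-0.54 ± 0.06, adjusted p = 7.13e-05). In both, the decitabine libraries overlapped or lay beside the vehicle libraries and the talazoparib libraries were clearly apart. H1-2, another linker histone of high count (-0.47), and the core histone genes H2AC21 (-0.67), H2BC10 (-0.66) and H3C11 (-0.53) differed in the same direction. H2BC14 showed the widest gap among the called members, from 13.9 and 10.3 CPM with decitabine to 5.73 and 5.26 CPM with talazoparib (-1.15 ± 0.15, adjusted p = 0.000549).

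**Figure D1:**
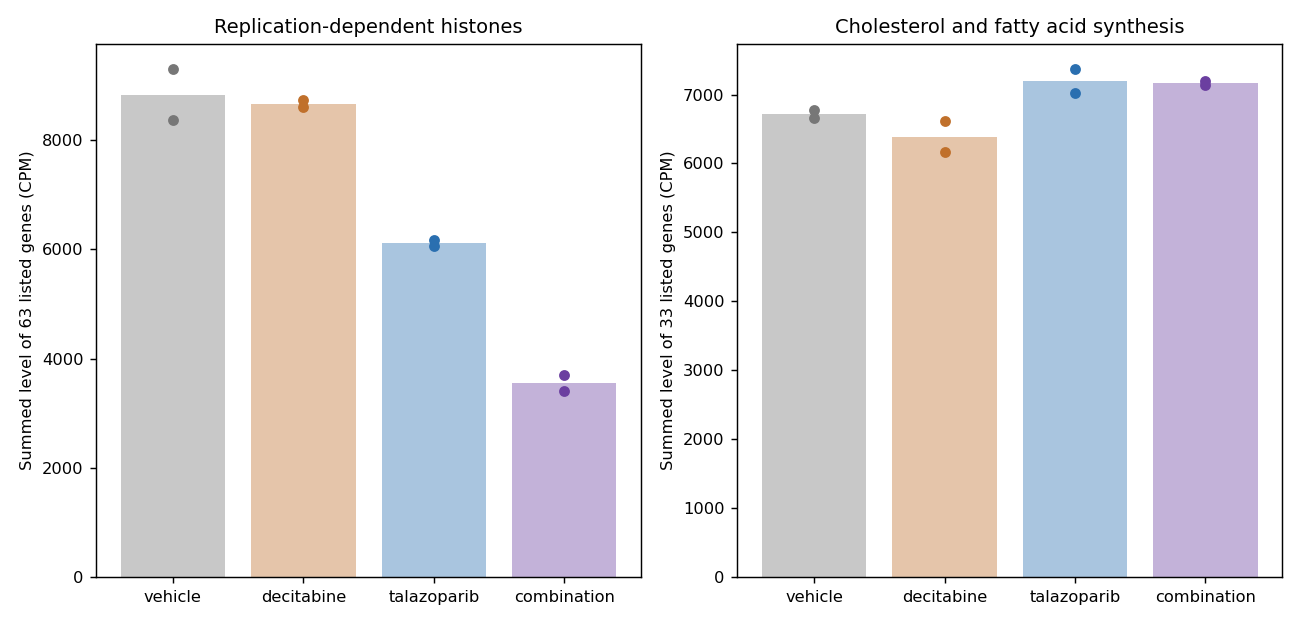
Left, the summed level (CPM) of 63 listed replication-dependent histone genes in EGI-1; bars are the mean of 2 libraries and points the libraries, with talazoparib at 6066 and 6180 CPM and decitabine at 8601 and 8730 CPM. Right, the same for the 33 cholesterol and fatty acid genes, with talazoparib at 7366 and 7024 CPM and decitabine at 6162 and 6620 CPM.

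The start regions of the called histone genes shared letters that the selection did not use. RefSeq promoter sequences on GRCh38.p14, covering 250 bases before and some after each start, were found for 34 of the 36 called histone genes. The CCAAT box (CCAAT, either strand), bound by NF-Y, was in 31 of the 34 (91.2%), against 35.7% of all 27305 promoters of the same length, and the TATA box (TATAAA, either strand) was in 23 (67.6%) against 12%. For the 79 other promoters of genes higher with decitabine these shares were 38% and 7.59%, and for the 61 of genes higher with talazoparib 42.6% and 18%. For the promoters of all genes tested in EGI-1 they were 36.2% and 6.67%. The shares among all 51 promoters of tested histone genes, called or not, were 84.3% and 68.6%, so they belong to the family rather than to the call. Some histone windows overlap, such as those of H2BC11 and H2AC11 on opposite strands, so a box there counts for both genes. The 250 bases before the start of H3C2 (chr6:26032100-26032349, minus strand) and H1-5 (chr6:27867589-27867838, minus strand) are shown because they carry the largest group of differences; capitals mark TATA and CCAAT boxes, and H1-5 has no exact TATAAA in this window.
H3C2: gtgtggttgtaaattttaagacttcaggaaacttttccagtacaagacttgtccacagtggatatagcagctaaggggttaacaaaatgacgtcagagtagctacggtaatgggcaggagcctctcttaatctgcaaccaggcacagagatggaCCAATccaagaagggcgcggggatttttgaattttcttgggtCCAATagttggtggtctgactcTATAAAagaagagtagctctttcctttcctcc
H1-5: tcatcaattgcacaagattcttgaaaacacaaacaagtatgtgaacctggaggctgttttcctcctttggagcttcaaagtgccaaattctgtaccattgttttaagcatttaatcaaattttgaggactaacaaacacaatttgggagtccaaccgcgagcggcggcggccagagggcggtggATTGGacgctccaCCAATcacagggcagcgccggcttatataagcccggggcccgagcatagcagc

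Genes that serve DNA synthesis in S phase differed in the same direction as the histones, in fewer members and by less. Of 43 S-phase genes tested, 5 (11.6%) were called higher with decitabine, against 0.594% of all genes, and none with talazoparib. Their median was -0.12, and 39 of the 43 had a fold change below 0, against 11274 of all 22406 genes. MCM6, a subunit of the replicative helicase, stood at 177 and 170 CPM with decitabine and at 133 and 139 CPM with talazoparib (-0.35 ± 0.06, adjusted p = 0.00599). PCNA, the sliding clamp of DNA polymerases, stood at 241 and 247 CPM against 198 and 196 CPM (-0.31 ± 0.06, adjusted p = 0.00866). The others were MCM5, a further helicase subunit (-0.28), UNG, which removes uracil from DNA (-0.31), and CLSPN, the checkpoint mediator claspin (-0.30). DUT, which breaks down dUTP, was the only called gene of 24 tested for nucleoside and decitabine handling (4.17%, against 0.946% of all genes). It stood at 44.2 and 43.7 CPM with decitabine and 32.6 and 35.7 CPM with talazoparib (-0.36 ± 0.08, adjusted p = 0.0369). None of 54 G2/M genes was called in either direction, against 0.946% of all genes, and their median was 0.04. At an unadjusted p under 0.05, 11 of the 54 were higher with talazoparib and 2 with decitabine. Over all 22406 genes these counts were 1118 and 1092. The number of S-phase genes called ranged from 0 to 5 when a library was left out, with 0 left without talazoparib replicate 1, 1 without talazoparib replicate 2, 2 without either vehicle library and 3 without either combination library. It was 2 with the replicate number as a block. Cell numbers and cell-cycle phases were not measured in these libraries, and fewer cells in a phase and less RNA per cell cannot be told apart in bulk samples.

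In the opposite direction, several genes of cholesterol and fatty acid synthesis were higher with talazoparib. Of 33 tested, 9 (27.3%) were called higher with talazoparib, against 0.353% of all genes, and none higher with decitabine. Of the 33, 28 had a fold change above 0, against 11132 of all 22406 genes, and the median was 0.25. An enzyme that opens the mevalonate pathway had the smallest p of the group. HMGCS1, which makes HMG-CoA, stood at 180 and 184 CPM with talazoparib and at 137 and 119 CPM with decitabine (0.51 ± 0.07, adjusted p = 0.000723). Vehicle lay with decitabine, at 132 and 137 CPM.

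Further along the pathway, MSMO1 (0.45), SQLE (0.27) and DHCR7 (0.30), enzymes of the squalene and sterol steps, were called, as was ACLY (0.25), which supplies cytosolic acetyl-CoA. The regulators SREBF1 (-0.28, adjusted p = 0.126) and SREBF2 (0.02, adjusted p = 0.958) were not called, nor were the fatty acid genes FASN (0.18, adjusted p = 0.46) and SCD (-0.05, adjusted p = 0.801). The sum over the 33 genes was 7366 and 7024 CPM with talazoparib and 6162 and 6620 CPM with decitabine. The number called fell to 1 without talazoparib replicate 1, to 3 without talazoparib replicate 2, to 2 without either vehicle library, to 2 with the replicate number as a block, and to 1 with the 4 talazoparib and decitabine libraries alone, while the median stayed above 0 in every setting tried. The promoter of HMGCS1 (chr5:43313413-43313662, minus strand) is shown because it leads the group; capitals mark CCAAT boxes, here as ATTGG on the printed strand, and a TATA box.
HMGCS1: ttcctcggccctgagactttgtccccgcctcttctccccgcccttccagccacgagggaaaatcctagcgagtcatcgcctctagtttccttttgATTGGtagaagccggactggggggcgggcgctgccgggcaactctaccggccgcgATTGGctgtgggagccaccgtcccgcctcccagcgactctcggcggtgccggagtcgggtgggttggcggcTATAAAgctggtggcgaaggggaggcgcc

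Among single genes higher with talazoparib, THBS1 combined a large difference with a high count. THBS1 encodes thrombospondin-1, a secreted matrix glycoprotein that restrains angiogenesis, and lies at chr15:39581079-39599466 on the plus strand. It stood at 3047 and 3035 CPM with talazoparib, 1570 and 1275 CPM with decitabine, 1276 and 1235 CPM with vehicle and 3404 and 3613 CPM with the combination. The talazoparib libraries were close to each other and far above those of decitabine (1.10 ± 0.08, 2.14-fold, adjusted p = 5.92e-05), which lay beside or somewhat above vehicle. THBS1-IT1, an intronic transcript of the same locus and strand, differed likewise (0.77 ± 0.12, adjusted p = 0.00227), and reads of unspliced THBS1 cannot be told apart from it.

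KISS1, a precursor of peptides named for suppressing metastasis, stood at 82.3 and 78.3 CPM with talazoparib, 39.6 and 48.4 CPM with decitabine and 30.8 and 30.1 CPM with vehicle (0.87 ± 0.09, adjusted p = 5.92e-05). ANKRD1, a stress-responsive ankyrin repeat cofactor, stood at 118 and 133 CPM, 79.5 and 69.5 CPM, and 43.0 and 40.7 CPM in the same order (0.75 ± 0.08, adjusted p = 7.73e-05). FST, the activin antagonist follistatin, stood at 76.8 and 76.3 CPM, 46.3 and 48.0 CPM, and 31.6 and 32.2 CPM (0.70 ± 0.07, adjusted p = 5.92e-05). For these genes both agents lay above vehicle in every library, and talazoparib lay above decitabine. GPRC5B, an orphan receptor, had the same order (15.2 and 14.6, 8.71 and 9.24, 4.64 and 4.51 CPM; 0.73 ± 0.11, adjusted p = 0.00196), as did SERPINB7, a serpin of epithelia (0.69 ± 0.12, adjusted p = 0.00781), and NLRP3, an inflammasome sensor (0.66 ± 0.09, adjusted p = 0.000933).

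NOG, the BMP antagonist noggin, stood apart in talazoparib alone of the single agents, at 45.8 and 36.6 CPM against 21.7 and 25.7 CPM with decitabine and 21.2 and 23.1 CPM with vehicle (0.80 ± 0.11, adjusted p = 0.00081). CACNB1, a calcium channel subunit, showed that order too (0.58 ± 0.10, adjusted p = 0.00781). IRF7, a transcription factor of the interferon response, had the largest fold change of the genes higher with talazoparib, from few reads: 155 and 179 counts with talazoparib, 43 and 40 with decitabine, 41 and 21 with vehicle and 19 and 48 with the combination (1.97 ± 0.28, adjusted p = 0.000933). It was the only one of 56 interferon-stimulated genes tested to be called (1.79%, against 0.946% of all genes), and the list's median was -0.01. BTBD7, which has a BTB domain, had the same shape, with 126 and 149 counts with talazoparib, 75 and 51 with decitabine and 56 and 48 with the combination (1.09 ± 0.22, adjusted p = 0.0222). RIMS1, a protein of synaptic vesicle release (1.34), TMEM229B, a membrane protein (0.84), and AZGP1, a secreted zinc-binding glycoprotein (0.83), completed the 15 largest differences in this direction.

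**Figure D2:**
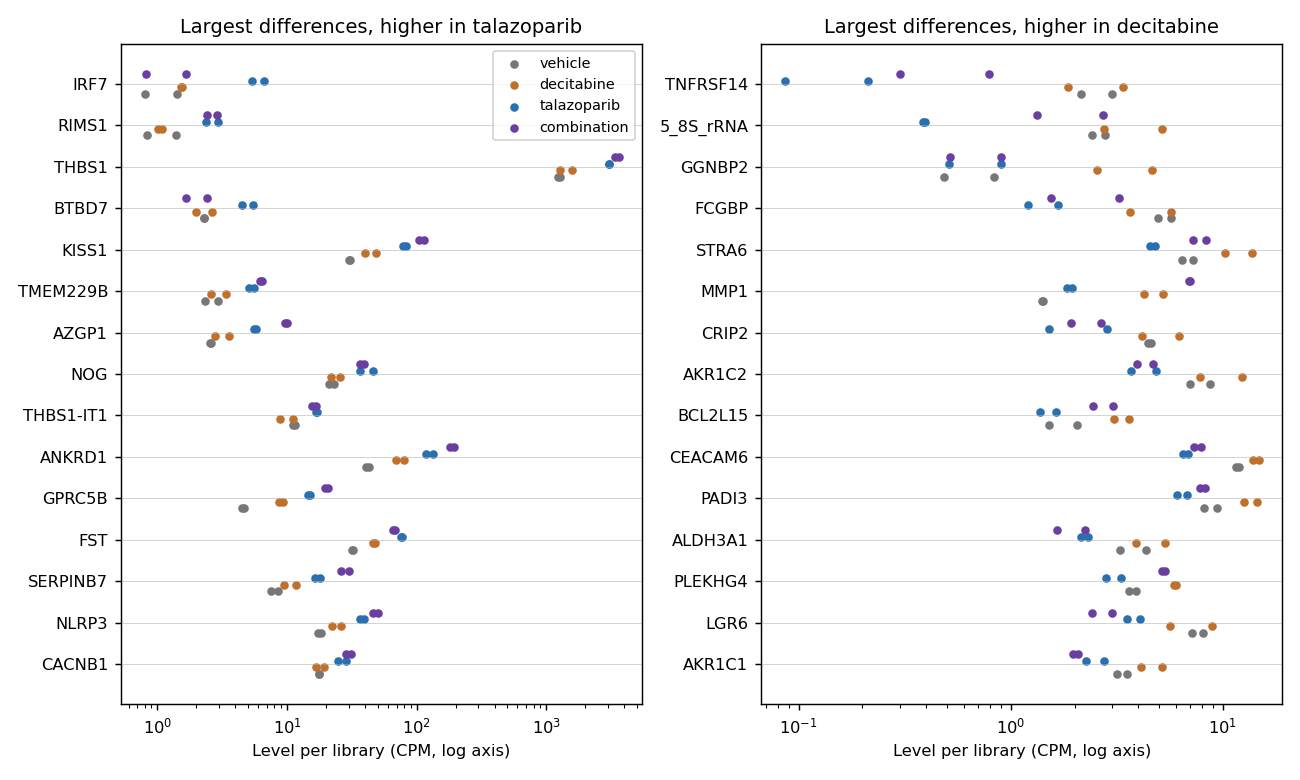
Level per library (CPM, log axis) of the 15 genes with the largest differences in each direction, histones left out; each gene has 2 points per arm. For THBS1 the talazoparib points are at 3047 and 3035 CPM and the decitabine points at 1570 and 1275 CPM; for STRA6 they are at 4.52 and 4.78 CPM and at 10.3 and 13.7 CPM.

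Of 38 extracellular matrix and mesenchymal genes tested, 3 were higher with talazoparib, THBS1, FST and CCN1, and 1 was higher with decitabine, TGFBI. CCN1, a matricellular protein, stood at 562 and 537 CPM with talazoparib and 446 and 415 CPM with decitabine (0.35 ± 0.06, adjusted p = 0.0023). TGFBI, an adhesion protein of the matrix, stood at 885 and 881 CPM against 1053 and 1010 CPM (-0.22 ± 0.05, adjusted p = 0.0356). The list's median was 0.02, and 10.5% of its tested genes were called, against 0.946% of all genes.

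THBS1, ANKRD1 and CCN1 are textbook targets of YAP and TEAD factors, and the letters GGAATG, the core of the site bound by TEAD, were therefore searched in the start regions on either strand. They were in 9 of 61 promoters of genes higher with talazoparib (14.8%) and in 8 of 79 of non-histone genes higher with decitabine (10.1%), against 14% of all promoters and 11.5% of those of genes tested, which is near the background. The antioxidant element TGACNNNGC was in 16.4% and 11.4% of these sets, against 13.6% of all promoters and 14.9% of those of genes tested. The AP-1 site TGANTCA was in 9.84% and 7.59%, against 7.76% of all promoters and 5.25% of those of genes tested. The sterol element TCACNCCAC was in 2 (3.28%) and 0 of the sets, against 1.15% of all promoters and 1.14% of those of genes tested. It was in 0 of the 4 promoters found for called cholesterol and fatty acid genes. Median CpG counts in the windows were 23 for genes higher with talazoparib, 20 for non-histone genes higher with decitabine and 25 for all tested genes with a promoter. The motifs were chosen after the values had been seen. No promoter sequence was found for CCN1, so its start region was not searched. THBS1 (chr15:39580829-39581078, plus strand) and ANKRD1 (chr10:90921088-90921337, minus strand) are shown because they are 2 of these textbook targets and hold the TEAD letters, in capitals. The letters were also in the windows of TNFRSF14 (-4.01), GGNBP2 (-2.37) and CRIP2 (-1.28), which were higher with decitabine and differed by more than either.
THBS1: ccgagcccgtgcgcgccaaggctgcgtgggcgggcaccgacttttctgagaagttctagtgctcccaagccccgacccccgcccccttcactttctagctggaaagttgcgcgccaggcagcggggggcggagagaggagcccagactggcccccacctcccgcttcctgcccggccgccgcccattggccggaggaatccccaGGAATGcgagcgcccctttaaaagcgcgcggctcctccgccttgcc
ANKRD1: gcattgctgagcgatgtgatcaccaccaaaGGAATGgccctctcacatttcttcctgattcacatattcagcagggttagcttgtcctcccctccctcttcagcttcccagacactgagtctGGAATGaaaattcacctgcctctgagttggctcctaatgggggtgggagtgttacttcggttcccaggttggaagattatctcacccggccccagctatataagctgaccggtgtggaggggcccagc

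Among single genes higher with decitabine, a first set lay below vehicle with talazoparib and nearer to it with decitabine. TNFRSF14, a receptor of the tumour necrosis factor family on the plus strand of chromosome 1, had the largest difference (-4.01 ± 0.50, adjusted p = 0.000513), on 96 and 48 counts with decitabine, 2 and 7 with talazoparib, 62 and 79 with vehicle and 7 and 23 with the combination. It overlaps TNFRSF14-AS1 on the opposite strand, and whether counting used strand is not stated. CEACAM6, a cell surface adhesion molecule of epithelia, stood at 13.9 and 14.8 CPM with decitabine, 6.46 and 6.87 CPM with talazoparib and 11.6 and 11.9 CPM with vehicle (-1.10 ± 0.12, adjusted p = 8.22e-05). Both of its decitabine libraries lay somewhat above both vehicle libraries. AGR2, a disulfide isomerase of secretory epithelia, stood at 37.4 and 35.4 CPM with decitabine, 25.1 and 27.0 CPM with talazoparib and 40.3 and 37.6 CPM with vehicle (-0.48 ± 0.09, adjusted p = 0.013), so that both decitabine libraries lay just below both vehicle libraries. CEACAM6 and AGR2 were the called genes among 37 epithelial and keratin genes tested (5.41%, against 0.946% of all genes), whose median was -0.01.

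FCGBP, a mucus protein (-1.72), CRIP2, a LIM-domain protein (-1.28), and LGR6, an R-spondin receptor (-0.93), also had talazoparib libraries below both of vehicle. The aldo-keto reductases AKR1C2 (-1.25 ± 0.21, adjusted p = 0.00781) and AKR1C1 (-0.89 ± 0.20, adjusted p = 0.0441) reduce steroids and reactive carbonyls and are close paralogs that may share reads. They and ALDH3A1, an aldehyde dehydrogenase (-1.04 ± 0.23, adjusted p = 0.0348), were higher with decitabine, where replicate 2 exceeded replicate 1 in all 3. Against vehicle, AKR1C1 stood at 0.46 with decitabine and -0.43 with talazoparib, so it was not nearer to vehicle with decitabine. An entry named 5_8S_rRNA (-3.32 ± 0.41, adjusted p = 0.000549) followed too, with 78 and 133 counts with decitabine and 9 and 13 with talazoparib. Ribosomal RNA was depleted in library preparation, and the part of that step in the difference was not tested.

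In a second set, not sharply apart from the first, decitabine lay above vehicle. STRA6, the cellular receptor for retinol-binding protein, stood at 10.3 and 13.7 CPM with decitabine, 4.52 and 4.78 CPM with talazoparib and 6.45 and 7.24 CPM with vehicle (-1.36 ± 0.16, adjusted p = 0.000171), so that the agents fell on opposite sides of vehicle. PADI3, a peptidylarginine deiminase, stood at 14.5 and 12.5 CPM, 6.80 and 6.11 CPM, and 8.14 and 9.40 CPM in that order (-1.07 ± 0.13, adjusted p = 0.000354). MMP1, an interstitial collagenase, stood at 5.22 and 4.25 CPM with decitabine, 1.85 and 1.94 CPM with talazoparib, 1.42 and 1.4 CPM with vehicle and 6.91 and 7 CPM with the combination (-1.32 ± 0.19, adjusted p = 0.0014). GGNBP2, a zinc finger protein, had 72 and 120 counts with decitabine, against 21 and 17 with talazoparib and 14 and 22 with vehicle (-2.37 ± 0.38, adjusted p = 0.00299). Against vehicle itself, decitabine raised STRA6 (0.81, adjusted p = 0.018), PADI3 (0.63, adjusted p = 0.0337), MMP1 (1.75, adjusted p = 0.000344) and GGNBP2 (2.44, adjusted p = 0.00405). That comparison called 0.518% of genes higher. The 4 genes were chosen with the same decitabine libraries, which favours such calls, so these values are a description and not separate support. BCL2L15, a BCL2 family member (-1.13), and PLEKHG4, a guanine nucleotide exchange factor (-0.96), had decitabine libraries above those of vehicle as well.

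Of 63 NF-kB targets and cytokines tested, 2 were higher with talazoparib and 3 with decitabine, with a median of -0.01. The share called was 7.94%, against 0.946% of all genes. PLAU, the urokinase protease, stood at 596 and 608 CPM with talazoparib and 501 and 475 CPM with decitabine (0.30 ± 0.05, adjusted p = 0.00733), and CSF2, the cytokine GM-CSF, at 29.4 and 28.2 CPM against 20.5 and 21.1 CPM (0.47 ± 0.10, adjusted p = 0.0253). Beside MMP1, TNFAIP2, a gene induced by tumour necrosis factor, was higher with decitabine, at 297 and 333 CPM against 234 and 224 CPM (-0.46 ± 0.06, adjusted p = 0.000588), and NFKBIA, the inhibitor of NF-kB, stood at 149 and 180 CPM against 133 and 129 CPM (-0.33 ± 0.08, adjusted p = 0.0493).

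A further group of genes higher with decitabine was noticed after their values had been seen and so is described without a test of its own. FTL and FTH1, the light and heavy chains of the iron store ferritin, stood at 1361 and 1293 CPM and at 845 and 788 CPM with decitabine, and at 933 and 975 CPM and at 577 and 651 CPM with talazoparib (-0.48 and -0.41). SLC7A11, the cystine importer, stood at 60.5 and 52.8 CPM against 35.9 and 39.2 CPM (-0.59 ± 0.09, adjusted p = 0.00198). It was the only gene of 27 ATF4 and amino acid supply genes called (3.70%, against 0.946% of all genes). NQO1, a quinone reductase (-0.37), and GCLC, the catalytic subunit of the enzyme that starts glutathione synthesis (-0.28), differed by less. PCDH7, a protocadherin (-0.65 ± 0.06, adjusted p = 5.92e-05), and KYNU, kynureninase (-0.78 ± 0.08, adjusted p = 7.13e-05), had among the smallest p-values of the comparison. For all of these genes the talazoparib libraries were below both vehicle libraries.

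Several lists tied to the agents' own mechanisms, and some others, held no called gene. The nucleoside and decitabine handling list held DUT alone. At the 0.946% of all genes called, the lists without a call would at their sizes hold fewer than 1 call each. None of 20 genes of the DNA methylation machinery, 24 PARP family and ADP-ribose genes, 37 Fanconi and homologous recombination genes, 43 p53 targets, 23 tumour suppressors with known promoter methylation, 14 tested germline and cancer-testis genes, 21 antigen presentation genes and 73 ribosomal protein genes was called. Their medians lay between -0.06 and 0.07. The 13 mitochondrially encoded genes had a median of -0.26 with none called, beside the uneven mitochondrial shares of the decitabine libraries, and the 3 metallothioneins tested, which bind metal ions, had a median of 0.15 with none called. DNMT1, the maintenance methyltransferase, stood at 427 and 457 CPM with decitabine and 454 and 437 CPM with talazoparib (0.01 ± 0.06, adjusted p = 0.974). PARP1 stood at 286 and 268 CPM and at 278 and 276 CPM (-0.00 ± 0.06, adjusted p = 0.998). DNMT3A (0.14), DNMT3B (-0.03) and PARP2 (-0.14) were not called, nor were CDKN1A, the p21 inhibitor of the cell cycle (-0.05 ± 0.07), and IL6, an inflammatory cytokine (0.06 ± 0.20). SFRP1, SOX17 and UCHL1, genes often silenced by promoter methylation in cancer, had between 0 and 4 counts in every EGI-1 library and were below the filter. No gene had 3 counts or fewer with an agent and 20 or more with the other in both libraries. MICB, a stress-induced ligand for receptors of natural killer cells and one of the antigen presentation genes, came just short of this, with 3 and 1 counts with decitabine, 20 and 16 with talazoparib and 2 and 2 with vehicle, and was not called (adjusted p = 0.119).

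Compared with vehicle, talazoparib lay further away than decitabine for most of the genes called. For the 79 genes higher with talazoparib, the median log2 fold change against vehicle was 0.56 with talazoparib and 0.14 with decitabine. For the 133 genes higher with decitabine it was -0.45 with talazoparib and -0.00 with decitabine. The 36 histone genes among them had medians of -0.58 and -0.02, and the other 97 genes -0.42 and 0.02. These values share libraries with the comparison that chose the genes and are given as a description.

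The combination and its vehicle controls share no library with the talazoparib and decitabine arms, although all were fitted together. Of the 79 genes higher with talazoparib, 68 (86.1%, exact 95% interval 76.5 to 92.8) were higher in the combination than with vehicle, against 11.1% of all genes, and none was lower. IRF7 and BTBD7 were among the 11 genes that were not. Of the 133 genes higher with decitabine, 101 (75.9%, exact 95% interval 67.8 to 82.9) were lower in the combination than with vehicle, against 7.61% of all genes, and 7 (5.26%) were higher, MMP1 among them (2.30, adjusted p = 3.17e-07). All 36 called histone genes were lower in the combination, with a median of -1.37 against -0.58 for talazoparib alone. The intervals treat genes as independent, which they are not, and cover counting error only. Genes higher with talazoparib and with decitabine had median levels of 5.95 and 6.07 log2 CPM, against 2.44 over all genes tested. Genes of higher level are easier to call in any comparison, so the share over all genes is not a matched background.

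HUCCT1 offered libraries in which decitabine was given at 1000 nM to a different line. Of the 132 genes higher with decitabine in EGI-1 that could be tested there, 33 (25%) were higher and 56 (42.4%) lower with decitabine, against 15.9% and 15% of genes tested in both lines. The histone genes accounted for much of the second share, with 29 of 36 (80.6%) lower and 0 higher (median -0.67); without them 33 of 96 (34.4%) were higher and 27 (28.1%) lower, with a median of 0.09. Of the 79 genes higher with talazoparib, 22 (27.8%) were higher and 24 (30.4%) lower. STRA6 (1.17, adjusted p = 1.21e-05), PADI3 (3.33, adjusted p = 5.19e-10) and MMP1 (1.60, adjusted p = 4.55e-11), which decitabine raised in EGI-1, were also higher in HUCCT1, and GGNBP2 was not called (-0.18, adjusted p = 0.792). H1-5 fell by 1.07 in HUCCT1 with decitabine (adjusted p = 3.37e-08), from 183 and 204 CPM to 85.3 and 98.9 CPM, while in EGI-1 decitabine at 500 nM left it at -0.03 against vehicle (adjusted p = 0.937). Outside the histones, the called genes exceeded the shares over all genes in both directions, and those shares are not matched for level. The lines received different doses, so line and dose cannot be told apart.

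**Figure D3:**
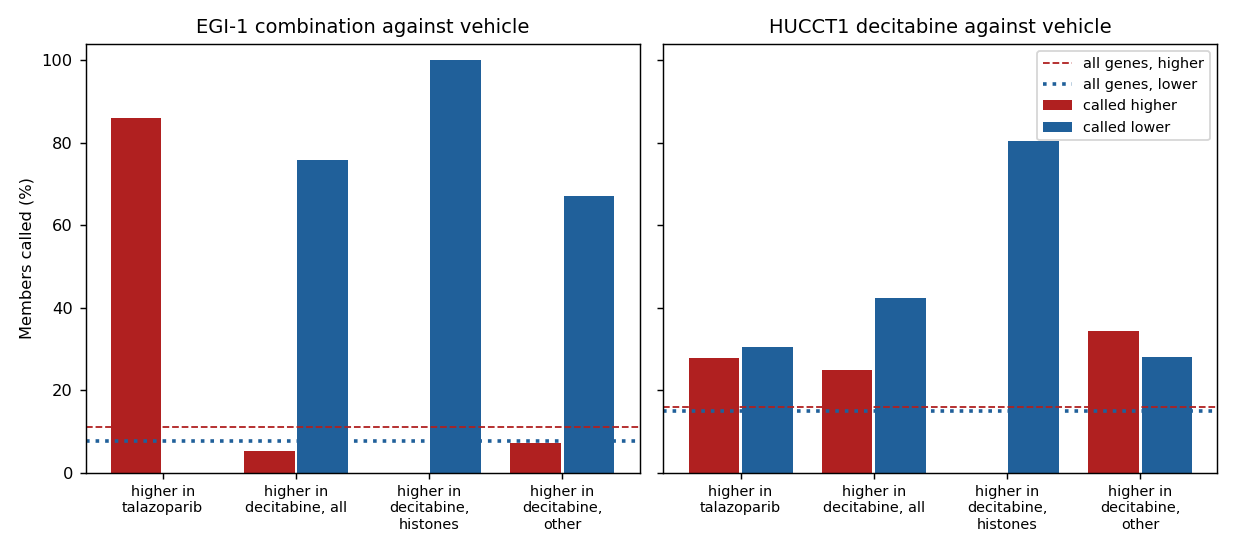
Percent of the called genes that were higher (red) or lower (blue) in the EGI-1 combination against vehicle (left) and in HUCCT1 decitabine against vehicle (right); dashed and dotted lines give the percent over all genes. Genes higher with talazoparib were higher in the combination in 86.1% of cases, and the called histone genes were lower in 100% there and in 80.6% in HUCCT1.

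The called genes were spread over the genome apart from the histone clusters. Of the 133 genes higher with decitabine, 34 lay on chromosome 6, where most histone genes are clustered, and 18 on chromosome 1, while those higher with talazoparib lay on 22 chromosomes with at most 11 on any. Of the 212 genes, 205 were protein coding and 6 were lncRNAs. By GENCODE 44, 97 of the 212 overlapped a gene with counts on the opposite strand and 42 one on the same strand.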

How the data were processed

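The authors deposited raw counts per gene, without normalization, for 12 libraries. Their methods name fastp, STAR, GRCh38 and RSEM, while the submitters' processing notes name fastp, Trim Galore, HISAT2 and featureCounts, whose layout the table has. The strand setting of the counting, the annotation and the handling of multi-mapping reads are not given in the sources used here. RNA was prepared with a stranded kit for total RNA with depletion of ribosomal RNA according to the methods.

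Counts of the 8 EGI-1 libraries were fitted together with edgeR 4.0.16 in R 4.3.3 (filterByExpr by arm, TMM, robust quasi-likelihood test, Benjamini-Hochberg adjustment over 22406 genes), and an adjusted p under 0.05 was a call. The 4 HUCCT1 libraries were fitted apart. All 8 EGI-1 libraries share 1 estimate of the spread. CPM carry TMM factors. Library totals of 23139065 to 33181930 limit what can be said of genes with few counts. Symbols, positions and strands came from GENCODE 44, and promoters from RefSeq. The genes compared and the gene lists were chosen with earlier results of these data known.

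Named were the 15 largest differences in each direction (adjusted p under 0.05, mean of at least 0 log2 CPM, a symbol, libraries of the agents apart, histones left out), the 3 histone genes of highest mean count, the drug targets, some genes of the study, and members of each list with the smallest p; others are said to have been noticed after their values were seen. Some genes that the rule names are not reported here. The fit was tested on simulated data. Alternatives were RLE and upper-quartile factors, no filter, only the 4 libraries compared, DESeq2 1.42.0, blocks, and leaving out each library. Replicate numbers were not taken as pairs in the main fit. Deviations of equally numbered talazoparib and decitabine libraries from their arm means had a correlation across genes of -0.27. It was -0.18 for decitabine and combination and 0.195 for talazoparib and combination, and whether the numbers pair samples is not known.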

Additional observations from a re-analysis of the deposited data

How the results depend on the processing

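The count of 212 genes that differed between the agents (79 higher with talazoparib, 133 higher with decitabine) stayed within 1.5 times of its value with RLE or upper-quartile factors, DESeq2 and a block by the series in the library names. It was 444 (171 and 273) with no filter on low counts, where 40184 genes were tested, 79 (16 and 63) with only the 4 libraries compared, and 119 (37 and 82) with the replicate number as a block. Leaving out a library gave 76 to 494 genes, 23 to 301 higher with talazoparib and 53 to 325 higher with decitabine; the cause was not tested, and a lone library was then taken to vary like the other arms. Equally numbered libraries share a number and, outside the vehicle arm, where it is crossed, a series in the library names. A pairing with the decitabine numbers crossed, added after the data were seen, gave 446 genes (199 and 247).

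The count of called histone genes kept within 1.5 times of 36 in every setting tried, from 27 to 44. S-phase genes called numbered 0 with the 4 libraries alone, 2 with either block and 0 to 5 without a library. Cholesterol and fatty acid genes called numbered 1 with the 4 libraries alone, 2 with the replicate number as a block, 4 with the block by library names and 1 to 12 without a library. Of the named genes tested, 14 lost their call with the replicate number as a block, 25 with the 4 libraries alone, and 24 without either talazoparib library; no called gene changed direction. Of 52 named genes called, 23 kept their call in every setting that gave them an adjusted p. Among them, over all 16 settings, were THBS1, KISS1, ANKRD1, FST, NOG, IRF7, HMGCS1, H1-5, STRA6, MMP1, PADI3 and CEACAM6. TNFRSF14 was also among them, but over 15 settings, since it had no adjusted p in the remaining setting. AKR1C1 lost its call in 11, TMEM229B and UNG in 10, TGFBI in 9, and ALDH3A1 and LGR6 in 8.

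With members limited to an adjusted p under 0.01, the shares read in HUCCT1 became 14.7% higher and 57.4% lower, and the share lower in the combination 84.1%. Without a library of the comparison read, the shares were 19.7% to 24.2% higher and 35.6% to 39.4% lower in HUCCT1, and in the combination 74.7% to 81.0% and 64.7% to 71.4%. Depth limits genes with few counts, such as SFRP1, SOX17 and UCHL1, for which no difference was detectable.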
